A study of Mus musculus with 3 samples.

Results

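KLF factors are zinc-finger transcription factors, and 4 of them (Klf2, Klf4, Klf6, Klf10) are described here with 4 genes known to respond to blood flow (Thbd, Adm, Cav1, Plpp3). These 8 genes were chosen by name, of 32285 genes listed, and were followed in single-cell RNA sequencing of mouse vascular tissue. All 8 reached 20 unique molecular identifiers (UMIs, 1 per captured molecule) in every comparison between libraries, so none was lost to that minimum. The mice were wild type, and every library is labelled vascular tissue at 3 weeks. One group served as the control with vehicle, one received sunitinib, an inhibitor of receptor tyrosine kinases, and one received sunitinib plus Yoda1, an agonist of the mechanically opened channel PIEZO1. The label of the sunitinib library gives the drug as TKI, and that of the third library names Yoda1 alone. That library was placed in the sunitinib plus Yoda1 group, the third group of the series design, which has none with Yoda1 by itself. The age and number of the animals, and whether they were pooled, are not known from the sources used here.

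Each group was 1 library. Differences between groups therefore have no replicate check and no test, and each range in brackets is a 95% interval for counting error alone. Levels are in CPM, the UMIs of a gene over the summed cells of a class, scaled to a total of 1000000 UMIs. They are not scaled by gene length and are compared between libraries and classes, not between genes. Ratios of the sunitinib plus Yoda1 library to sunitinib went up with the intron bases of genes, as described below. Cells with at least 500 UMIs, at least 300 genes and at most 15% mitochondrial UMIs were used. Endothelium is the set of cells with at least 3 of the 5 markers Pecam1, Cdh5, Egfl7, Ptprb and Vwf detected. It held 170 vehicle, 206 sunitinib and 366 sunitinib plus Yoda1 cells. Smooth muscle is the set with at least 2% of UMIs from Acta2, Tagln, Myh11 and Cnn1. It held 3614, 3818 and 65 cells.

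The sunitinib plus Yoda1 library stood apart from the others. Lymphocytes, defined by at least 2 of 6 B and T cell genes, made up 57.9% of its kept cells, and the other libraries held 1 such cell each. Its total was 28364203 UMIs, against 73901343 with vehicle and 66769480 with sunitinib. Its endothelial cells had a median of 4668.5 UMIs, against 9180.5 and 7719. Endothelial genes outside the class rule (Kdr, Tie1, Tek, Cldn5, Esam, Mmrn2, Emcn) summed in endothelium to 1686 CPM with vehicle, 1654 with sunitinib and 3477 with both compounds. All 7 were detected in each, though the VEGF receptor gene Kdr stood at 4.80, 3.39 and 756 CPM. The 5 capillary genes Car4, Gpihbp1, Rgcc, Cd36 and Fabp4 summed to 176, 75.3 and 17369 CPM, and haemoglobin genes to 8.16, 2.54 and 42258. In endothelium Car4 was at 0 with vehicle, and Car4 and Gpihbp1 with sunitinib. The 6 smooth muscle genes outside the rule summed to 2299, 2789 and 186 CPM in endothelium. A UMI of a capillary gene was present in 22.4%, 19.4% and 92.6% of endothelial cells. In smooth muscle the same 5 genes summed to 305, 296 and 283 CPM, so 1 such UMI does not by itself mark a capillary cell. Cell Ranger was version 7.1.0 for the third library and 6.0.0 for the others, per the file headers. Treatment, cell composition, depth and counting version cannot be told apart for the third library. Of the barcodes, 3 were shared by vehicle and sunitinib, 3 by vehicle and the third library, and 8 by sunitinib and the third.

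Both classes are ranges cut from a per-cell measure, not types. Of endothelial cells, 17 with vehicle, 19 with sunitinib and 66 with both compounds had exactly 3 markers. A further 46, 56 and 67 cells had exactly 2 and stayed outside. Of smooth muscle cells, 124, 82 and 11 lay between 2% and 2.5%, and 72, 39 and 8 cells lay between 1.5% and 2%. Cells that met both rules numbered 19, 22 and 0.

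As background, laminar flow over the endothelium activates the kinases MEKK3, MEK5 and ERK5, and these act through MEF2 factors to switch on the genes of KLF2 and KLF4. KLF2 and KLF4 are known for raising anticoagulant and vasodilator genes such as those of thrombomodulin and nitric oxide synthase, and for holding down adhesion and clotting genes. In smooth muscle KLF4 is known for opposing contractile genes, and KLF2, KLF4, KLF6 and KLF10 all behave as immediate early genes, transcribed quickly after serum, stress or tissue dissociation.

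The start of the Klf2 and Klf4 genes is shown because these 2 genes are the endpoints of that kinase route. Klf2 (ENSMUSG00000055148) lies at chr8:72319033-72321656 on the plus strand and Klf4 (ENSMUSG00000003032) at chr4:55527143-55532466 on the minus strand (GRCm38, the assembly named mm10; GENCODE vM21). The sequences come from RefSeq windows of GRCm38.p6 that end at the base before the RefSeq transcript start, 5′ to 3′ on the strand of the gene. The RefSeq start of Klf2 lies 29 bases inside the GENCODE gene, so the last 29 of its 250 bases were left out and Klf2 is printed for chr8:72318812-72319032. Klf4 covers chr4:55532476-55532725. Capitals mark GC boxes (GGGCGG on either strand) in both and, in Klf2, the match to the MEF2 site.
Klf2: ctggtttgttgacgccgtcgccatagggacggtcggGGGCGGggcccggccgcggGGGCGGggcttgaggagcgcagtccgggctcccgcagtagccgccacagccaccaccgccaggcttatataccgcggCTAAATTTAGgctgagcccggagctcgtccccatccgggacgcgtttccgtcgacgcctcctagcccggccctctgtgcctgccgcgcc
Klf4: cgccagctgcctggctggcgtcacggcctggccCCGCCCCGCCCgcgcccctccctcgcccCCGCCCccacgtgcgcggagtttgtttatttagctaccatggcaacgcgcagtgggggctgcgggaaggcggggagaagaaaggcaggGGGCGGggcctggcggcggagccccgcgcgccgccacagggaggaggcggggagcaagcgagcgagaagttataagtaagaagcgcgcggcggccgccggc
Positions count back from the RefSeq start, which for Klf2 lies past the end of the stretch printed. The MEF2 match begins 118 bases before the RefSeq start of Klf2, and such a match was present in 2.92% of 32851 windows of this length. It was found in no other window of the 6 genes matched in the table (Klf2, Klf4, Klf6, Adm, Cav1 and Plpp3). GC boxes begin 214 and 195 bases before that of Klf2 and 217, 212, 189 and 101 bases before that of Klf4, with the first 2 of Klf4 overlapping. A GC box was present in 32.7% of all windows. The CACCC motif bound by KLF factors (either strand) was present in 52.0% of windows, in that of Plpp3 and, outside the stretch printed, in that of Klf2. A match to the serum response element was present in 1.47% of all windows and in none of the 6. These matches describe letters only.

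In endothelium, Klf2 and Klf4 stood lower in the sunitinib library than with vehicle, by less than 1.5-fold. Klf2, the flow-induced factor that restrains inflammation and clotting, stood at 1979 CPM with vehicle (1919 to 2040), 1424 with sunitinib (1376 to 1473) and 1100 with both compounds (1059 to 1143). Klf4, which overlaps Klf2 in function, stood at 796 (758 to 835), 605 (574 to 637) and 534 CPM (505 to 564). For both genes vehicle was highest and the library with both compounds lowest. The log2 ratio of sunitinib to vehicle, whose 10th percentile over all genes measured was -0.42, was -0.47 for Klf2 (-0.54 to -0.41) and -0.40 for Klf4 (-0.50 to -0.29). The ratio of both compounds to sunitinib, whose 25th percentile over all genes was -0.48, was -0.37 for Klf2 (-0.45 to -0.30) and -0.18 for Klf4 (-0.29 to -0.07). These 2 ratios turned to 0.27 and 0.36 when cells with a UMI of a lymphocyte marker, Ptprc or haemoglobin were left out, which kept 39 cells of the third library. They were -1.36 and -0.92 without cells carrying a capillary gene UMI, which kept 27.

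The share of cells with a Klf2 UMI followed the same order. With each cell thinned to 2000 UMIs it was 86.1% of vehicle (79.7 to 91.1, exact binomial interval), 73.8% of sunitinib (66.9 to 79.9) and 69.4% of sunitinib plus Yoda1 endothelial cells (64.0 to 74.5), and the intervals of neighbours in this order overlapped in both pairs. Without thinning the shares were 95.3%, 82.5% and 82.0%. Thinning left out 12, 19 and 52 shallower cells. For Klf4 the thinned shares were 62.0%, 53.5% and 50.3%. Lymphocytes, which use Klf2, had 598 CPM of it in the third library and 42.5 CPM of Klf4.

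Klf6 (ENSMUSG00000000078, chr13:5861482-5870394, plus strand), a widely expressed injury-response factor, did not follow that order. It stood at 362 CPM with vehicle (336 to 389), 396 with sunitinib (371 to 422) and 279 with both compounds (258.5 to 301). The interval of the sunitinib to vehicle ratio included 0 (0.13, -0.01 to 0.27), and both compounds stood below sunitinib (-0.50, -0.65 to -0.36). Klf10 (ENSMUSG00000037465, chr15:38291463-38300706, minus strand), a TGF-beta early response factor, stood at 80.1 CPM with vehicle (68.4 to 93.2), 42.3 with sunitinib (34.4 to 51.5) and 71.5 with both compounds (61.2 to 83.0). Only the sunitinib library was apart, 1.89-fold below vehicle (log2 -0.92, -1.29 to -0.56) and 1.69-fold below both compounds (0.76, 0.39 to 1.13). The Klf10 sums were 167, 100 and 172 UMIs. The first of these ratios was 0.93 among cells at or under the median immediate early share of endothelium over all 3 libraries. That cut kept 52 sunitinib and 51 vehicle cells. In the lowest quartile of that share, described below, Klf10 rested on 16 and 9 UMIs. The interval of its ratio there included 0 (1.04, -0.23 to 2.40). The second ratio was -0.07 without cells carrying a Kdr UMI.

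**Figure D1:**
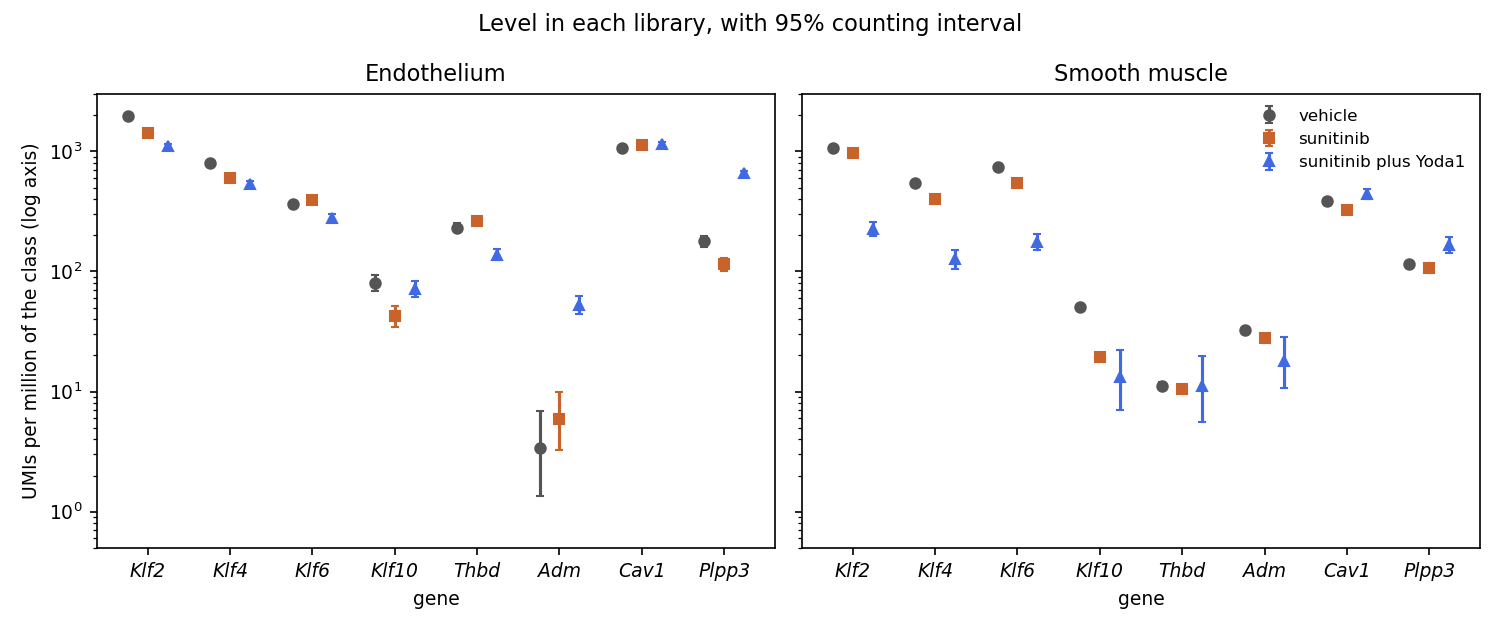
CPM (UMIs scaled to a common total, log axis) for each gene in endothelium (left) and smooth muscle (right), 1 point per library with its 95% counting interval. Klf2 goes down from 1979 to 1424 to 1100 in endothelium, and Klf2, Klf4 and Klf6 of the sunitinib plus Yoda1 library lie far below the other libraries in smooth muscle.

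In smooth muscle Klf10 stood lower with sunitinib and the other 3 KLF genes were less than 1.5-fold apart. Klf10 stood at 50.7 CPM with vehicle (49.0 to 52.4), 19.4 with sunitinib (18.3 to 20.5) and 13.1 with both compounds (6.97 to 22.4; 13 UMIs). Sunitinib was 2.62-fold below vehicle (log2 -1.39, -1.48 to -1.29), and the ratio of both compounds to sunitinib had an interval that included 0 (-0.56, -1.48 to 0.22). Klf2 stood at 1067 (1060 to 1075), 975 (967 to 983) and 227 CPM (198 to 258). Klf4 stood at 549, 400 and 126 CPM (105 to 150 in the last), and Klf6 at 740, 541 and 176 CPM (151 to 204). The sunitinib to vehicle ratios were -0.13 for Klf2 (-0.15 to -0.12), -0.46 for Klf4 (-0.48 to -0.43) and -0.45 for Klf6 (-0.47 to -0.43). The 10th percentile of this ratio over all genes measured was -0.33. Klf4 and Klf6 lay below it, and Klf2 did not. Against sunitinib, the 65 cells with both compounds stood 4.30-fold lower in Klf2 (log2 -2.10, -2.30 to -1.92), 3.18-fold lower in Klf4 (-1.67, -1.93 to -1.41) and 3.07-fold lower in Klf6 (-1.62, -1.84 to -1.40). One of those 65 cells held 52 of their 225 Klf2 UMIs, and haemoglobin genes summed to 7064 CPM in them. Without cells carrying a lymphocyte, Ptprc or haemoglobin UMI, 6 were left, and the ratios were -0.48 for Klf2, 0.05 for Klf4 and -0.63 for Klf6.

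The levels of Klf2 and Klf4 went with the immediate early genes of the same cells, whose transcription starts within minutes of a stimulus. The 8 genes Fos, Fosb, Jun, Junb, Egr1, Ier2, Atf3 and Dusp1 made up 1.43% of endothelial UMIs with vehicle, 1.17% with sunitinib and 0.346% with both compounds. In smooth muscle they made up 1.76%, 1.29% and 0.470%. Across cells, each gene was taken as its UMIs scaled to a common total per cell, on a log scale. Klf2 and the immediate early share had a Pearson r of 0.51, 0.56 and 0.44 in endothelium of vehicle, sunitinib and both compounds. In smooth muscle the r was 0.76, 0.73 and 0.29. For Klf4 these values were 0.52, 0.51 and 0.38 in endothelium and 0.67, 0.63 and 0.28 in smooth muscle. For Klf6 they were 0.31, 0.18 and 0.28 in endothelium and 0.59, 0.43 and 0.12 in smooth muscle, and for Klf10 0.44, 0.09 and 0.04 and then 0.32, 0.22 and 0.06. Klf10 was thus near 0 in endothelium of both treated libraries. Klf2 and Klf4 themselves had an r of 0.46, 0.60 and 0.50 in endothelium and 0.57, 0.57 and 0.51 in smooth muscle. The cells of a library share its handling and depth, and these values are descriptions.

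Genes with a UMI in at least 20% of cells of both the vehicle and the sunitinib library were ranked on the same log scale. By mean r over these libraries, the genes most like Klf2 among 5008 genes in endothelium were Klf4 (0.53), Jund (0.51), Fosb (0.51), Junb (0.51) and Ier2 (0.50). Those most like Klf4 were Klf2, Fosb (0.52), Junb (0.49), Ier3 (0.48) and Fos (0.46). In smooth muscle, among 6136 genes, Fos (0.71), Junb (0.68) and Egr1 (0.67) were most like Klf2, and Egr1 (0.66), Junb (0.62) and Atf3 (0.61) most like Klf4. The r of the immediate early share in endothelium was -0.11, 0.01 and 0.08 with Thbd, -0.06, 0.12 and 0.12 with Cav1 and 0.26, 0.12 and 0.16 with Plpp3.

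Compared among cells of like immediate early share, the order of the libraries in Klf2 was different. Vehicle and sunitinib cells of each class were cut into quartiles by that share, at 0.329%, 0.888% and 1.72% of UMIs in endothelium and at 0.555%, 1.45% and 2.15% in smooth muscle. From the lowest to the highest quartile, endothelial Klf2 stood at 998, 1480, 2000 and 2544 CPM with vehicle and at 447, 886, 1671 and 2211 with sunitinib. Sunitinib was lower in 4 of 4 quartiles, with log2 ratios of -1.16 (-1.45 to -0.87), -0.74 (-0.92 to -0.56), -0.26 (-0.38 to -0.14) and -0.20 (-0.30 to -0.10). The gap in Klf2 was widest among the cells with the fewest immediate early UMIs (47 cells in each library). With both compounds, 253, 91 and 21 cells fell in quartiles 1 to 3 and 1 cell in quartile 4.

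In those 3 quartiles Klf2 stood at 756, 1612 and 2003 CPM with both compounds, above sunitinib in 3 of 3 by log2 ratios of 0.76 (0.50 to 1.02), 0.86 (0.71 to 1.01) and 0.26 (0.10 to 0.42). The ratio over the whole class was on the other side of 0 (-0.37). Klf4 showed the same turn. It stood at 327, 805 and 1233 CPM with both compounds against 251, 328 and 537 with sunitinib, with ratios of 0.38 (0.04 to 0.75), 1.29 (1.06 to 1.53) and 1.20 (0.97 to 1.42), against -0.18 over the class. Sunitinib to vehicle ratios of Klf4 by quartile were -0.26 (-0.70 to 0.17), -0.42 (-0.74 to -0.10), -0.35 (-0.55 to -0.15) and 0.04 (-0.10 to 0.18). Most of the sunitinib plus Yoda1 cells so compared carry capillary genes, and the part of cell type in these ratios was not tested by this cut. The cuts came from vehicle and sunitinib cells alone. The third library also differed in depth, counting version and haemoglobin UMIs, and the part of these in the share was not tested. An equal share there need not mean like cells.

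**Figure D2:**
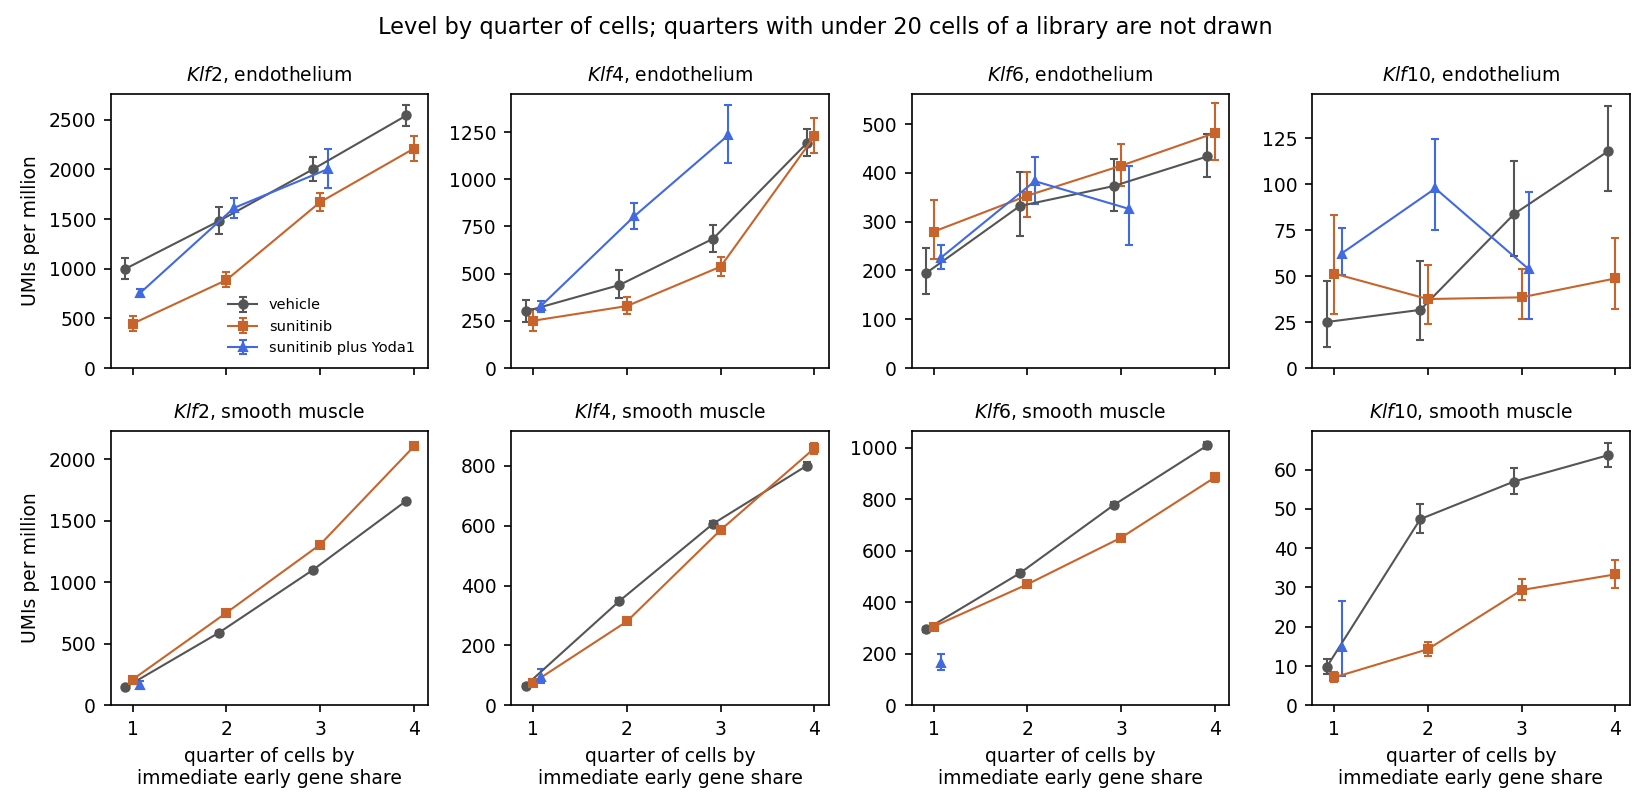
CPM (with 95% counting interval) of the 4 KLF genes against the quartile of cells by immediate early gene share, in endothelium (top) and smooth muscle (bottom), 1 line per library. In endothelium the sunitinib line of Klf2 lies below vehicle in all 4 quartiles and the sunitinib plus Yoda1 line above sunitinib in the 3 quartiles drawn, while in smooth muscle the sunitinib line of Klf2 lies above vehicle.

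In smooth muscle the quartiles turned the direction of Klf2 as well. Klf2 stood at 145, 590, 1098 and 1662 CPM with vehicle and at 209, 752, 1306 and 2102 with sunitinib, with ratios of 0.53 (0.44 to 0.62), 0.35 (0.31 to 0.39), 0.25 (0.22 to 0.28) and 0.34 (0.32 to 0.36). It was higher with sunitinib in 4 of 4 quartiles although its class ratio was -0.13. Klf10 kept its direction, at 9.70, 47.4, 57.0 and 63.7 CPM with vehicle against 7.1, 14.3, 29.3 and 33.3 with sunitinib (log2 from -1.73 to -0.45). Klf6 lay between -0.26 and 0.05, and Klf4 between -0.31 and 0.20. With both compounds only the lowest quartile held enough cells (48) to compare. There Klf2 was -0.35 against sunitinib (-0.63 to -0.09), Klf4 0.35 (-0.02 to 0.69) and Klf6 -0.89 (-1.16 to -0.63), against class ratios of -2.10, -1.67 and -1.62. Among these 48 cells Klf2 was nearer to sunitinib than over the class, and the interval of Klf4 included 0. The 13 cells of quartile 2 stood at 244 CPM of Klf2 (179 to 326), 138 of Klf4 (90.1 to 202) and 164 of Klf6 (112 to 233). Sunitinib stood there at 752, 280 and 469. Quartiles 3 and 4 held 3 cells and 1 cell, with Klf2 at 115 and 3695 CPM.

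In the endothelial quartiles Klf10 and Klf6 were less regular. Klf10 with sunitinib lay below vehicle in the upper 2 quartiles (-1.12, -1.82 to -0.44, and -1.27, -1.94 to -0.65), and its intervals included 0 in the lower 2 (1.04 and 0.25). With both compounds it lay above sunitinib in quartile 2 (1.38, 0.68 to 2.12), with intervals that included 0 in quartiles 1 and 3 (0.28 and 0.48). Klf6 ratios of both compounds to sunitinib were -0.30 (-0.65 to 0.05), 0.12 (-0.15 to 0.38) and -0.35 (-0.74 to 0.03), against -0.50 over the class. Each of these quartile intervals included 0.

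Thbd (ENSMUSG00000074743, chr2:148404466-148408188, minus strand) encodes thrombomodulin, the thrombin receptor that turns thrombin to the activation of protein C. In endothelium it stood at 232 CPM with vehicle (212 to 253), 261 with sunitinib (240 to 282) and 138 with both compounds (124 to 154). Vehicle and sunitinib overlapped (log2 0.17, -0.00 to 0.34), and both compounds stood 1.89-fold below sunitinib (-0.92, -1.11 to -0.72). In the quartiles the last ratio was -1.28 (-1.63 to -0.92), -0.95 (-1.33 to -0.58) and -0.14 (-0.67 to 0.36). Thbd stayed near 11 CPM in smooth muscle of all libraries (11.2, 10.5 and 11.1), and stood at 1.81 CPM in lymphocytes.

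Adm (ENSMUSG00000030790, chr7:110627661-110629820, plus strand, with Gm28863 on the other strand) encodes adrenomedullin, a vasodilator peptide. In endothelium it gave 7 UMIs with vehicle (3.36 CPM, 1.35 to 6.92), 14 with sunitinib (5.92, 3.24 to 9.94) and 127 with both compounds (52.8, 44.0 to 62.8). The first 2 libraries overlapped (log2 0.82, -0.59 to 2.37) and the third stood 8.91-fold above sunitinib (3.16, 2.36 to 4.07). Those 127 UMIs came from 20 of 366 cells (5.46%, 3.37 to 8.31, exact binomial interval), against 6 of 170 vehicle and 10 of 206 sunitinib cells. A single cell without 2 capillary or lymphatic genes held 35 of them, and the ratio to sunitinib was -0.29 in the 39 cells with no lymphocyte, Ptprc or haemoglobin UMI. The ratio of sunitinib to vehicle also turned, to -0.81, when 2 markers were enough for endothelium. Lymphocytes of that library, at a median of 5667 UMIs, showed an Adm UMI in 0.496% of cells. In smooth muscle Adm stood at 32.6 CPM with vehicle (31.3 to 34.0), 27.9 with sunitinib (26.6 to 29.2) and 18.1 with both compounds (10.7 to 28.7; 18 UMIs).

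Cav1 (ENSMUSG00000007655, chr6:17306335-17341452, plus strand, with Gm15581 on the other strand) encodes caveolin-1, the coat protein of caveolae. In endothelium its level over the whole class was 1070 CPM with vehicle (1026 to 1115), 1135 with sunitinib (1092 to 1179) and 1151 with both compounds (1109 to 1195), with neighbouring intervals overlapping. The ratio of sunitinib to vehicle was 0.08 (0.00 to 0.17), which was -0.02 when libraries were scaled by TMM factors (trimmed means over genes), and that of both compounds to sunitinib was 0.02 (-0.06 to 0.10), which was -0.15 with those factors. In the quartiles of immediate early share the first ratio ran from -0.66 (-0.87 to -0.45) in the lowest through -0.04 (-0.22 to 0.14) and 0.08 (-0.08 to 0.23) to 0.55 (0.41 to 0.70) in the highest. Cav1 with sunitinib was thus below vehicle in the lowest quartile and above it in the highest. In smooth muscle Cav1 stood at 384 (380 to 389), 325 (320 to 329) and 439 CPM (399 to 482). Its ratio there was -0.24 for sunitinib against vehicle (-0.27 to -0.22), below 0 in 4 of 4 quartiles, and 0.44 for both compounds against sunitinib (0.30 to 0.57), or 0.20 with TMM factors. Lymphocytes held 1.64 CPM of Cav1.

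Plpp3 (ENSMUSG00000028517, chr4:105157347-105232764, plus strand) encodes a phosphatase that breaks down lysophosphatidic acid at the cell surface. In endothelium it stood at 179 CPM with vehicle (161 to 198), 115 with sunitinib (102 to 130) and 659 with both compounds (627 to 692). Sunitinib was 1.55-fold below vehicle (log2 -0.64, -0.87 to -0.41) and 5.73-fold below both compounds (2.52, 2.33 to 2.71). Plpp3 with sunitinib was below vehicle in 4 of 4 quartiles of immediate early share (-0.24, -0.78, -0.71 and -0.50, the interval of the first including 0). With both compounds it was above sunitinib in 3 of 3 (2.34, 3.07 and 2.44). The thinned share of endothelial cells with a Plpp3 UMI was 31.0%, 21.9% and 66.2%, against 3.97% of lymphocytes unthinned. In smooth muscle Plpp3 stood at 115, 108 and 167 CPM (143 to 195 in the last), 1.55-fold above sunitinib there (0.64, 0.40 to 0.86), a ratio of 0.39 with TMM factors.

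Counted at 1.5-fold with at least 20 UMIs over both sums, sunitinib against vehicle in endothelium left 1 of the 8 genes higher (Adm), where 10.5% of all 9838 genes measured were higher, and 2 lower (Klf10 and Plpp3), where 6.00% were lower. The median log2 ratio was -0.16 over the 8 genes and 0.10 over all genes. In smooth muscle 0 were higher, with 7.41% of all genes, and 1 was lower (Klf10), with 4.76%. With both compounds against sunitinib in endothelium, 3 were higher (Klf10, Adm, Plpp3), with 36.6% of all genes, and 1 lower (Thbd), with 21.6%. In smooth muscle 1 was higher (Plpp3), with 32.9%, and 4 were lower (Klf2, Klf4, Klf6, Adm), with 10.1%. The interval of Adm included 0 in smooth muscle (-0.62, -1.38 to 0.04), as it did in endothelium for sunitinib against vehicle. All-gene medians for both compounds against sunitinib were 0.21 in endothelium and 0.17 in smooth muscle. Of the 4317 genes counted as higher in smooth muscle there, 1729 had under 10 UMIs in 1 of the libraries.

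**Figure D3:**
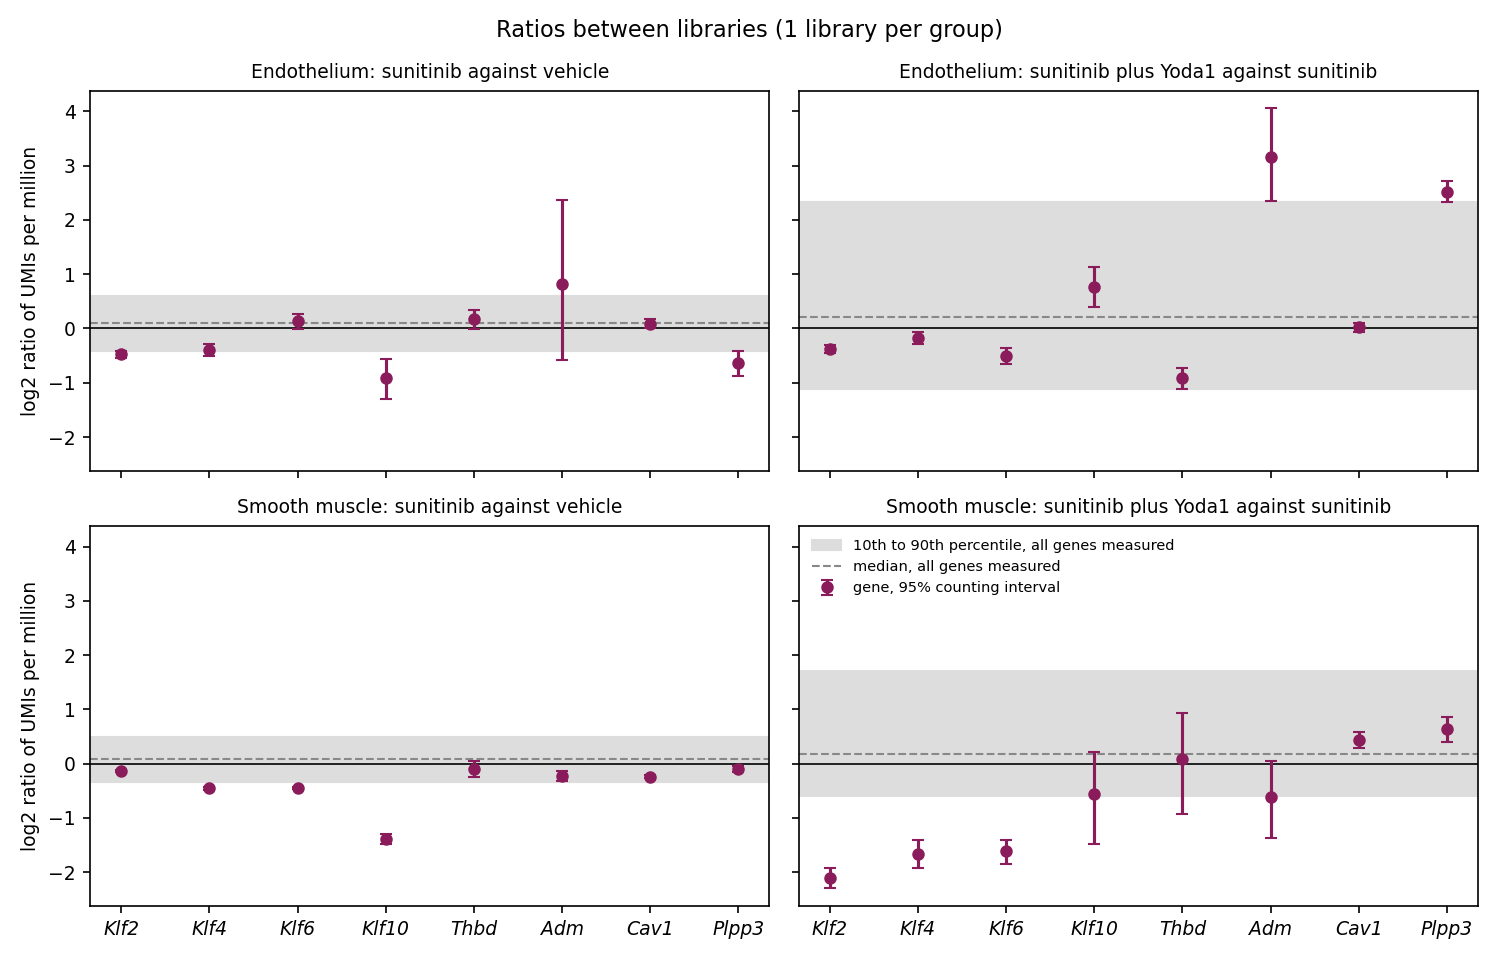
Log2 ratio of CPM between libraries for each of the 8 genes (points, with 95% counting interval), in endothelium (top) and smooth muscle (bottom). The dashed line is the median and the grey band the 10th to 90th percentile of all genes measured. In the lower right panel Klf2 at -2.10, Klf4 at -1.67, Klf6 at -1.62 and, near its edge, Adm at -0.62 lie below the band.

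Endothelium was also set against smooth muscle of the same library, where treatment and counting version are shared. Thbd was the most endothelial of the 8 genes, 20.7-fold higher than in smooth muscle with vehicle, 24.9-fold with sunitinib and 12.5-fold with both compounds. Cav1 was 2.79-, 3.50- and 2.62-fold higher, and Klf2 1.85-, 1.46- and 4.86-fold. In vehicle 5 of the 8 genes were 1.5-fold higher in endothelium (Klf2, Klf10, Thbd, Cav1, Plpp3), where 26.3% of all genes were, and 2 were lower (Klf6 and Adm), where 20.5% were. In sunitinib 4 were higher (Klf4, Klf10, Thbd, Cav1), with 26.8%, and 1 lower (Adm), with 19.9%. With both compounds all 8 were higher, with 36.9%, and 0 lower, with 20.6%. The smooth muscle of that library was 65 cells, with few UMIs of Thbd, Klf10 and Adm. Under the alternatives its log2 ratio lay between -0.53 and 2.20 for Klf6, which kept its sign in 18 of 19. It lay between 0.35 and 2.60 for Plpp3, 0.45 and 2.41 for Adm, and 1.84 and 4.17 for Thbd. Klf6 had a ratio to smooth muscle of -1.03 with vehicle, -0.45 with sunitinib and 0.66 with both compounds, and Adm one of -3.28, -2.24 and 1.54.

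Within endothelium the third library was split by its own markers. Cells with at least 2 capillary genes numbered 302 (82.5%), cells with at least 2 of the lymphatic genes Prox1, Lyve1, Mmrn1, Flt4 and Pdpn numbered 21 (5.74%), and 43 cells (11.7%) had under 2 of either. In vehicle and sunitinib 161 (94.7%) and 199 cells (96.6%) had under 2 of either. Among these cells Klf2 stood at 2063 CPM with vehicle (1998 to 2129), 1449 with sunitinib (1399 to 1501) and 961 with both compounds (863 to 1066), and Klf4 at 820, 629 and 336 (279 to 400 in the last). Thbd stood at 243, 269 and 103 CPM (72.8 to 141), and Cav1 at 1125, 1164 and 825 (735 to 923). Cav1, within 1.5-fold over the whole class, stood lower with both compounds among these cells. The immediate early share of the 43 cells was 0.31%.

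Plpp3 differed between the subsets. It stood at 793 CPM in the capillary subset with both compounds (752 to 836), 383 in the lymphatic subset (313 to 463) and 227 in the 43 cells with neither (181 to 281), against 115 in the like cells of sunitinib (102 to 130) and 171 in those of vehicle (153 to 191). The Plpp3 ratio to sunitinib was 0.89 when cells with any capillary gene UMI were left out (27 and 166 cells), against 2.52 over the class. Klf2 stood at 1206 in the capillary and 614 in the lymphatic subset, and Klf4 at 532 and 809. Thbd stood at 128 and 246 in these subsets, and Cav1 at 1302 and 628.

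Plpp3 and Cav1 also have the most intron bases of the 8 genes, 72259 and 31674, against 0 in Thbd and 541 to 5065 in the others. Among all genes measured in endothelium, the median log2 ratio of both compounds to sunitinib was -0.37, -0.10, 0.18, 0.51 and 1.22 in 5 equal groups from the fewest to the most intron bases. The corresponding smooth muscle medians were 0, 0, 0.07, 0.32 and 0.91. For sunitinib against vehicle they lay between 0.05 and 0.12 in both classes. Plpp3, at 2.52 in endothelium, lay within the 10th to 90th percentile of the genes with most intron bases (-0.66 to 3.67), and Klf2, at -0.37, lay at the median of those with fewest. In smooth muscle Klf2 and Klf4 lay below the 10th percentile of their group (-0.84), and Klf6 below that of its own (-0.69). The sources used here do not say whether intronic reads were counted in each library.

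**Figure D4:**
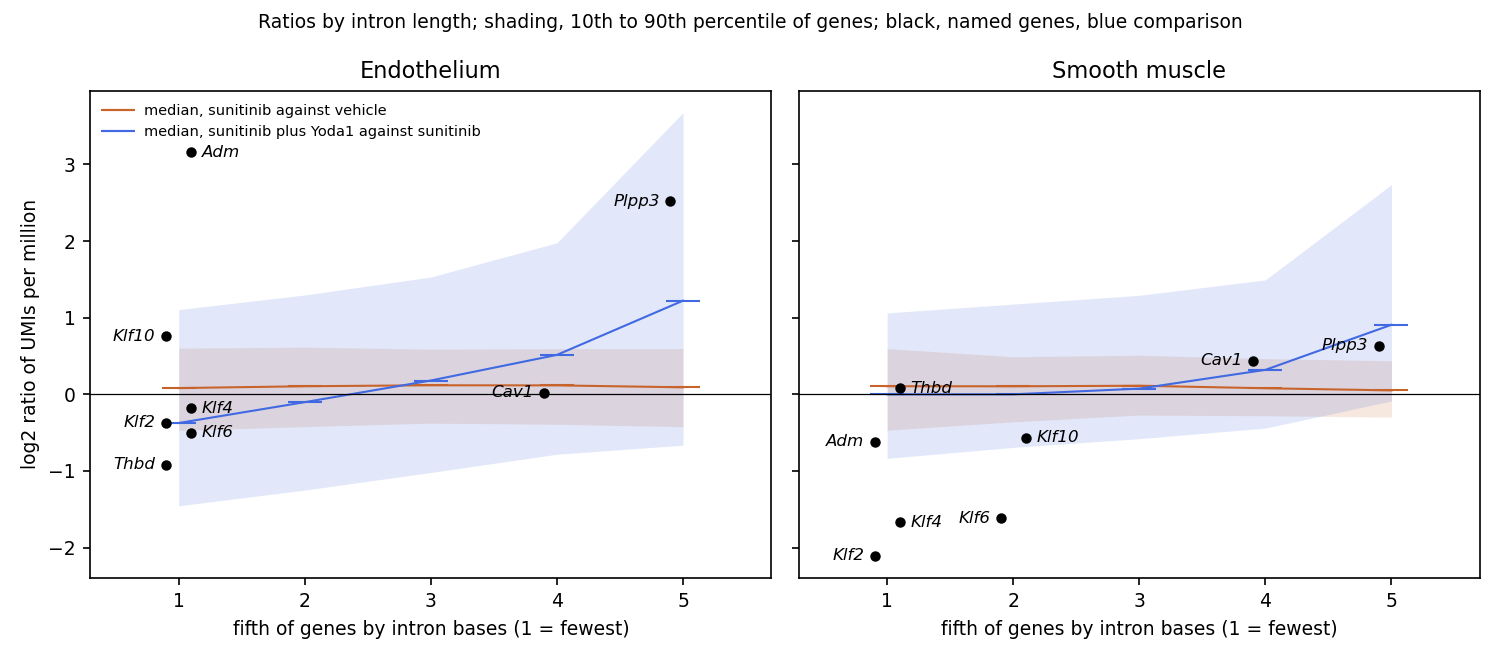
Median log2 ratio of CPM over all genes (lines) by group of intron bases, in endothelium (left) and smooth muscle (right). Shading is the 10th to 90th percentile of genes, and black points are the 8 genes for sunitinib plus Yoda1 against sunitinib. The medians for sunitinib plus Yoda1 go up with intron bases, to 1.22 in endothelium and 0.91 in smooth muscle, and those for sunitinib against vehicle stay flat.

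The route to KLF2 and KLF4 (Map3k2, Map3k3, Map2k5, Mapk7, the Mef2 genes and the cerebral cavernous malformation genes that restrain it) was mostly less than 1.5-fold apart between sunitinib and vehicle. In endothelium 1 of its 11 genes was 1.5-fold higher and 0 lower (median -0.03), and in smooth muscle 0 were (median 0.04). For all genes these shares were 10.5% higher and 6.00% lower in endothelium and 7.41% and 4.76% in smooth muscle. The one gene was Map2k5, which encodes MEK5, at 9.12 CPM with vehicle and 15.7 with sunitinib (0.78, -0.05 to 1.66). With both compounds 7 of 11 were higher than with sunitinib and 1 lower in endothelium (median 0.93), and 6 were higher in smooth muscle (median 0.60). Of all genes, 36.6% were higher and 21.6% lower in endothelium and 32.9% and 10.1% in smooth muscle. Map2k5 (2.39) and Mef2c (2.31) led in endothelium, and Heg1, a membrane partner of the restraining genes, was lower (-1.08, -1.18 to -0.99). Of 10 genes of flow sensing at the membrane, 9 were measured in endothelium for sunitinib against vehicle, with 0 higher and 1 lower. With both compounds 5 of 10 were higher and 3 lower, with 36.6% and 21.6% of all genes. Piezo1 stood at 51.3, 46.5 and 132 CPM in endothelium. It has 59697 intron bases. Endothelial genes with 30093 to 70405 intron bases had a median ratio of both compounds to sunitinib of 0.51 (10th to 90th percentile -0.78 to 1.98). The part of intron bases in the ratios of these lists was not tested.

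Genes raised by laminar flow or by KLF2 and KLF4 were mostly less than 1.5-fold apart between sunitinib and vehicle. Of 16 measured in endothelium for sunitinib against vehicle, 1 was higher (Tfpi, an inhibitor of clotting, 1.09, 0.45 to 1.77) and 1 lower (Slc9a3r2, a scaffold protein gene, -0.80, -0.97 to -0.63), with a median of -0.04 (10.5% and 6.00% of all genes, median 0.10). Nos3, the endothelial nitric oxide synthase, stood at 310 CPM with vehicle, 255 with sunitinib and 153 with both compounds (log2 -0.28, -0.44 to -0.12, and -0.74, -0.93 to -0.55). Among cells with under 2 capillary or lymphatic genes Nos3 stood at 319, 261 and 325 CPM. With both compounds against sunitinib 7 of 17 genes were higher and 7 lower (36.6% and 21.6% of all genes), from the water channel gene Aqp1 (3.57) to the connexin gene Gja4 (-3.06).

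Genes raised by disturbed flow or held down by KLF2 and KLF4 stood higher in endothelium with sunitinib in 5 of 13 cases, with 0 lower and a median of 0.35, where 10.5% of all genes were higher and the median was 0.10. Thbs1, which encodes thrombospondin 1, stood at 728 CPM with vehicle and 1548 with sunitinib (1.09, or 2.13-fold), and Edn1, the gene of the vasoconstrictor endothelin 1, at 566 and 1066 (0.91, 0.81 to 1.02). Ccn2, a matrix-associated growth factor gene, stood at 850 and 1568 (0.88, 0.80 to 0.97), and the 2 others rested on few UMIs (Sele 1.32, 0.34 to 2.41, and F3 1.10, -0.24 to 2.61). The adhesion genes Vcam1 (769 and 565 CPM, -0.44) and Icam1 (372 and 275 CPM, -0.44) were on the other side of 0. With both compounds 11 of 12 were lower than with sunitinib (median -2.61), where 21.6% of all genes were lower and the median was 0.21, among them Thbs1 at 51.9 CPM (-4.90), Ccn2 at 66.5 (-4.56) and Edn1 at 96.0 (-3.47), and Angpt2 was higher (1.90). Capillary genes, depth and immediate early share moved with these values, and their part was not tested. In smooth muscle 0 of 12 were higher with sunitinib and 2 lower, Thbs1 (-0.86) and Angpt2 (-0.59), with 4.76% of all genes lower.

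**Figure D5:**
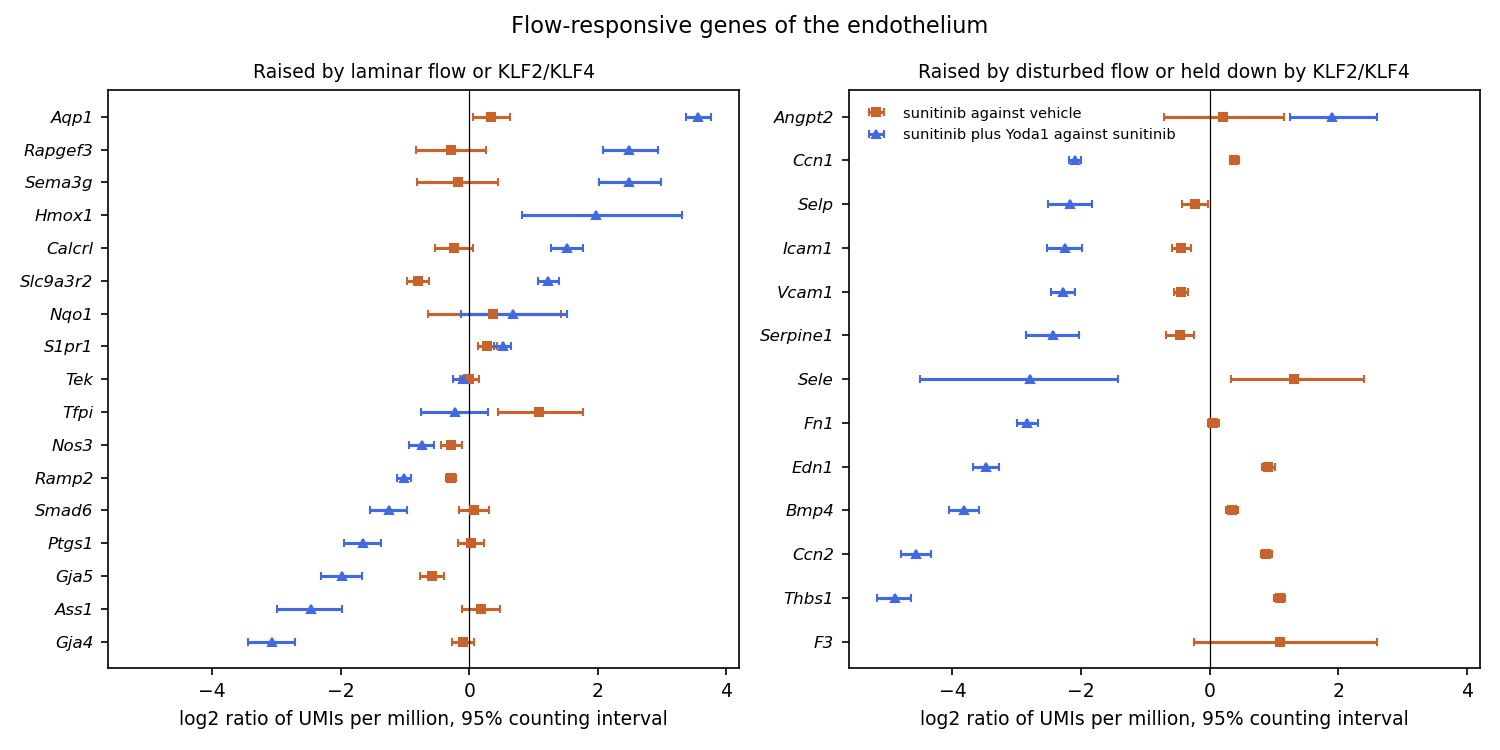
Log2 ratio of CPM in endothelium (with 95% counting interval) of genes raised by laminar flow or KLF2 and KLF4 (left) and of genes raised by disturbed flow or held down by these factors (right), for sunitinib against vehicle (orange) and sunitinib plus Yoda1 against sunitinib (blue). On the right 11 of 12 blue points lie below 0, and the orange points of Thbs1, Edn1 and Ccn2 lie near 1. F3 had too few UMIs for the second comparison.

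Partners of the other members were described by list as well. In endothelium 10.5% of all genes were higher and 6.00% lower with sunitinib against vehicle, and 36.6% and 21.6% with both compounds against sunitinib. The shares in smooth muscle were 7.41% and 4.76%, and then 32.9% and 10.1%. Of 6 caveola genes (Cav2, Cavin1, Cavin2, Cavin3, Ehd2, Pacsin2), 0 were 1.5-fold apart between sunitinib and vehicle in either class. With both compounds 1, Cavin3 (-0.69, -0.86 to -0.53), was lower in endothelium and 0 were in smooth muscle. Of the adrenomedullin receptor genes, 0 of 4 were apart with sunitinib in endothelium. With both compounds 2 of 5 were higher, the receptor gene Calcrl (80.4 and 231 CPM, 1.52) and Ramp3 (3.82, 2.17 to 6.15), and 3 were lower, among them Ramp2, the partner of Calcrl, at 952 and 472 CPM (-1.01). Of genes of protein C and thrombin, 2 of 6 were higher with sunitinib in endothelium, Tfpi and F3. With both compounds 4 of 5 were lower, led by Procr, the protein C receptor gene, at 253 and 46.1 CPM (-2.46, -2.76 to -2.16). Of genes of lysophosphatidic acid, 2 of 5 were higher and 1 lower with sunitinib. With both compounds 2 of 6 were higher and 2 lower, and Enpp2, which makes this lipid, stood at 4.66 and 76.1 CPM (4.03, 3.16 to 5.06).

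Among the other KLF genes, Klf15 was apart in all comparisons. This glucocorticoid-induced factor stood at 17.8 CPM with vehicle, 47.0 with sunitinib and 2.08 with both compounds in endothelium (1.40, 0.86 to 1.98, and -4.50, -6.15 to -3.23) and at 31.3, 57.0 and 20.2 CPM in smooth muscle (0.86, 0.79 to 0.94, and -1.50, -2.21 to -0.87). In endothelium 1 of 8 measured KLF genes was higher and 0 lower with sunitinib (median 0.24), and in smooth muscle 1 of 10 was higher and 2 lower (median -0.00). Of all genes, 10.5% were higher and 6.00% lower in endothelium and 7.41% and 4.76% in smooth muscle. With both compounds 3 of 9 were higher and 2 lower in endothelium (36.6% and 21.6% of all genes), from Klf15 to Klf12 (12.7 and 96.4 CPM, 2.93). Of 6 early TGF-beta response genes, the class to which Klf10 belongs, 0 were higher and 1 lower with sunitinib in endothelium (median -0.17) and in smooth muscle (median -0.34). The gene was Tgif1 in both. With both compounds 5 of 6 were lower in endothelium and 3 of 6 in smooth muscle, where 21.6% and 10.1% of all genes were.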

How the data were processed

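Single-cell RNA sequencing of wild-type mouse vascular tissue was used, and each of the 3 groups was 1 library. The authors deposited unnormalized UMI counts for each gene in each called cell. Per the file headers these came from Cell Ranger 7.1.0 for the library with both compounds and 6.0.0 for the other libraries. The build was mm10, per the submitters' processing notes. The counts hold called cells, of which 3947, 4148 and 3130 passed the filters of 500 UMIs, 300 genes and 15% mitochondrial UMIs. The depth was 73901343, 66769480 and 28364203 UMIs over all deposited barcodes.

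Counts were summed per class and library and scaled to CPM. Intervals are exact Poisson for CPM, exact conditional binomial for ratios and Clopper-Pearson for shares of cells, all at 95%, and cover counting error alone. With 1 library a group no test was possible. A gene was counted as higher or lower at 1.5-fold with at least 20 UMIs over both sums, and a sum of 0 was set to the floor of 3 counts for a bound. No doublet caller was run, and cells meeting both class rules were left out as an alternative. Intron bases are from GENCODE vM21. The summing was tested on simulated data. Tools were Python 3.11.15, numpy 2.4.6, scipy 1.17.1, pandas 2.3.3, matplotlib 3.10.9 and edgeR 4.0.16 (TMM factors only).

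The genes, lists and comparisons were chosen with earlier results of these data known. The rule named the 8 genes in every class and library and, for each list, its 2 highest and 2 lowest members, of which the text gives a selection. Nos3, Edn1, Piezo1, Icam1, Cavin3 and others outside that rule were named after their values were seen. The 21 other settings covered the filters, class rules, thinning, scaling, count minimum, fold and cell subsets, and 1 more was added after seeing the data.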

Additional observations from a re-analysis of the deposited data

Results flagged for a closer look

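Cav1, the caveolin-1 gene, lay on opposite sides of 0 in the 2 classes when sunitinib was set against vehicle. Its log2 ratio was 0.085 in endothelium and -0.24 in smooth muscle. With 1 library a group the difference between the classes was not tested. The endothelial value was -0.02 with TMM factors, on the side of smooth muscle. It was -0.67 among cells at or under the median immediate early share of endothelium over all 3 libraries. That cut kept 52 sunitinib and 51 vehicle cells. Over 17 alternatives the endothelial ratio lay between -0.67 and 0.19 and stayed above 0 in 14. By quartile of that share it ran from -0.66 in the lowest to 0.55 in the highest. The lowest quartile (47 cells in each library) is cut from the same share, so its cells overlap those behind -0.67.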

How the results depend on the processing

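Of 998 log2 ratios of the 8 genes under the alternatives, 684 stayed inside the counting interval of the reported ratio and 304 left it. Another 10, of ratios past 1.5-fold, changed sign, as did 35 values of ratios under 1.5-fold. Klf2 with sunitinib against vehicle in endothelium lay between -1.09 and -0.38 and kept its sign in 17 of 17 alternatives, Plpp3 with both compounds against sunitinib between 0.89 and 3.01, and Klf10 with sunitinib in smooth muscle between -1.49 and -1.18. Klf2 with both compounds in endothelium lay between -1.36 and 0.70. The counts that follow are of the 8 genes and are given without the share of all genes under the same setting. They do not show whether a move was particular to these genes. In endothelium, sunitinib against vehicle, the 1 higher gene became 0 with at most 5% mitochondrial UMIs, 2 or 4 markers, cells meeting both rules left out, thinning, a minimum of 50 UMIs, a 2-fold limit and no capillary UMI. The 2 lower became 1 with thinning and 0 at 2-fold. Adm was -0.10 at 5% mitochondrial UMIs, -0.81 with 2 markers and -0.18 without cells meeting both rules. Klf10 was 0.93 in cells of low immediate early share (52 with sunitinib and 51 with vehicle). With both compounds against sunitinib, the 1 lower became 3 at 5% mitochondrial UMIs, 2 with 2 markers, TMM factors, median-of-ratios factors or no lymphocyte, Ptprc or haemoglobin UMI, 0 at 2-fold, 4 without capillary UMIs and 3 without Kdr UMIs. The 3 higher became 1 without capillary UMIs. Adm was -0.29 without lymphocyte, Ptprc or haemoglobin UMIs, and Klf10 -0.074 without Kdr UMIs, the alternative chosen after seeing the data. In smooth muscle, the 1 lower with sunitinib became 3 at 5% mitochondrial UMIs. With both compounds the 1 higher became 2 at that limit and 0 with either scaling, at 2-fold, without lymphocyte, Ptprc or haemoglobin UMIs or without Hox UMIs. The 4 lower became 1 without lymphocyte, Ptprc or haemoglobin UMIs. Adm was 0.80 at 5% mitochondrial UMIs and Klf4 0.050 without lymphocyte, Ptprc or haemoglobin UMIs. Endothelium against smooth muscle gave 3 higher with vehicle, not 5, at 5% mitochondrial UMIs, with 2 markers, either scaling or low immediate early share, and 2 at 2-fold. Klf10 was -0.22 at low immediate early share. With both compounds 8 became 5 without lymphocyte, Ptprc or haemoglobin UMIs or without capillary UMIs, and Klf6 was -0.53 in the first case. The cause of these moves was not tested. No paired analysis was possible because each group is 1 library. The third library holds 65 smooth muscle cells.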

Other observations

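Smooth muscle of vehicle and sunitinib could be divided by Hox genes, which record position along the body axis. Klf2 had 1181 CPM in vehicle cells with a UMI of Hoxa7, Hoxa9, Hoxa10, Hoxc6, Hoxc8, Hoxc9 or Hoxc10 and 966 in those without, and 1073 against 855 with sunitinib. The immediate early share of UMIs was also higher in cells with a Hox UMI, at 1.88% against 1.65% with vehicle and 1.37% against 1.18% with sunitinib, and its part in the Klf2 values was not tested. Cav1 went the other way, at 330 against 432 with vehicle and 295 against 361 with sunitinib. Thbd had 7.94 against 14.1 CPM and 7.74 against 13.8. All 3 genes thus kept the same order of the 2 kinds of cell in both libraries.

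Heat shock genes, which answer protein damage, had the median farthest from 0 with sunitinib against vehicle among the gene lists other than cell markers. Of 8, 7 were 1.5-fold lower in endothelium (median -0.77) and 7 in smooth muscle (median -0.88), and 0 were higher in either. Of all genes, 6.00% were lower in endothelium (median 0.10) and 4.76% in smooth muscle (median 0.09). Of 12 immediate early genes 1 was lower in endothelium (median -0.27) and 4 in smooth muscle (median -0.40). With both compounds against sunitinib 11 of 12 immediate early genes were lower in endothelium (median -1.63) and 11 in smooth muscle (median -1.33), where 21.6% and 10.1% of all genes were lower (medians 0.21 and 0.17).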
